A study of Mus musculus with 22 samples.

Results

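Long H3K27me3 domains are stretches of the autosomes where at least 1 cell type of the developing mouse neocortex carried an unbroken H3K27me3 peak of 10000 bp or more. H3K27me3 peaks of 5 cell types that shared at least 1 bp were joined into regions, and domains were chosen by peak length: an autosomal region was kept when any of its H3K27me3 peaks reached that length. Regions touching 1 of 4 fixed windows at the Hox gene clusters, which are long Polycomb targets in most tissues, were left out. This removed 5 long regions, and regions beside the windows were kept. The rule kept 572 long domains of 9831 autosomal regions outside the Hox windows (5.82%), and 13700 joined regions existed on all chromosomes.

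The study mapped H3K27me3 and H3K4me3 by chromatin immunoprecipitation and sequencing in purified cells of C57BL/6JOlaHsd mouse embryos, with no mutant allele or treatment in the labels. Neuroepithelial cells (NEC), from which the cortical progenitors descend, came from embryonic day E9.5. At E14.5, apical radial glia were taken as a proliferative (aRG-P) and a neurogenic (aRG-N) population, beside basal radial glia (bRG) and neurons (N). Each cell type and mark had 2 samples (20 in all, in 10 groups), and the labels call both aRG-N H3K27me3 samples technical replicates. The labels gave no marker or gate by which the cells were purified, and without an annotation of the build used the cell types could not be checked against marker genes.

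H3K27me3 is written by Polycomb repressive complex 2, which can spread from a nucleation site over neighbouring nucleosomes and so form broad domains over silent developmental regulators. H3K4me3 is written at promoters, where it marks transcribed genes and, beside H3K27me3, genes held silent but able to be activated. Such dual promoters are called bivalent, and during neural development many are known to keep only 1 of the marks. Overlap of separately made peak lists does not show that both marks sit in the same cell.

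The files were 10 peak lists, 1 for each mark in each cell type, and the samples had been combined before peaks were called. Values therefore carry no replicate spread, and cell types were compared without a test. Intervals are exact Clopper-Pearson 95% intervals and cover counting error only. Read depth is unknown. The H3K27me3 lists held 3476 peaks in bRG to 9460 in NEC, and the N and aRG-P lists were made in other ways than the rest, per the peak names, with reads extended by 200 bp in N and a set left out in aRG-P. Positions are 1-based in mouse build mm9, and regions are given without gene names.

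The long domains were few and held much of the marked sequence. They spanned 11.8 Mb, 33.6% of the length of all autosomal regions outside the Hox windows. Their lengths ran from 10033 to 113799 bp with a median of 16775.5 bp, while the 9259 shorter regions had a median of 1725 bp. The domains just inside the threshold had longest peaks of 10015, 10033 and 10033 bp, and the regions just outside it had longest peaks of 9989, 9981 and 9978 bp. The longest peak of a domain lay in the aRG-N list for 275 domains, in N for 173, in NEC for 104, in aRG-P for 18 and in bRG for 2. These lengths and the presence of H3K27me3 in each list were used by the rule and are a description only.

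Most long domains held an H3K27me3 peak in every list. Of the 572 domains, 434 (75.9%, interval 72.2 to 79.3%) had a peak in all 5 H3K27me3 lists, a pattern found at 22.4% of all autosomal regions. When presence needed 50% of the domain covered, 278 (48.6%) had H3K27me3 in all 5 lists, and the bRG share was 59.4%. By cell type, a peak was present in 484 domains for NEC (84.6%), 538 for aRG-P (94.1%), 541 for aRG-N (94.6%), 516 for bRG (90.2%) and 540 for N (94.4%). The shares over all autosomal regions were 56.9% for NEC, 42% for aRG-P, 60.2% for aRG-N, 30.2% for bRG and 52.3% for N. Because a longer region meets more peaks by its length alone, 1171 regions whose longest peak measured 5000 to under 10000 bp are given beside them, a class chosen after the data were seen. Of those, 67.1% had a peak in all 5 lists.

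The unbroken 10000 bp peak that defines a domain was shared less widely than the mark itself. A peak of that length was present in 310 domains for NEC, 284 for aRG-P, 454 for aRG-N, 223 for bRG and 400 for N. In 184 domains all 5 lists held such a peak, and in 190 domains a single list did. The lists covered 60.9% of the summed domain length for NEC, 66.7% for aRG-P, 84.9% for aRG-N, 55.5% for bRG and 79.1% for N. In domains with H3K27me3 of the cell type, the median share covered was 77.2% for NEC, 73.4% for aRG-P, 95.3% for aRG-N, 62.3% for bRG and 90.2% for N. The aRG-N and N lists held the longest peak of most domains and so set their extent, which fixes a high covered share for these lists. The mark lay in 1 peak in 453 of 541 domains in aRG-N, 421 of 540 in N and 394 of 484 in NEC, against 343 of 538 in aRG-P and 318 of 516 in bRG. The bRG list was the shortest and the aRG-P list was made differently, and the part of list making in these breaks was not tested. Peak numbers in the names count every call made, so a skipped number shows a call that is not in the list. Between neighbouring peaks inside a domain, a number was skipped in 4 of 308 gaps in bRG and 6 of 296 in aRG-P, so nearly all of these gaps held no unlisted call.

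**Figure D1:**
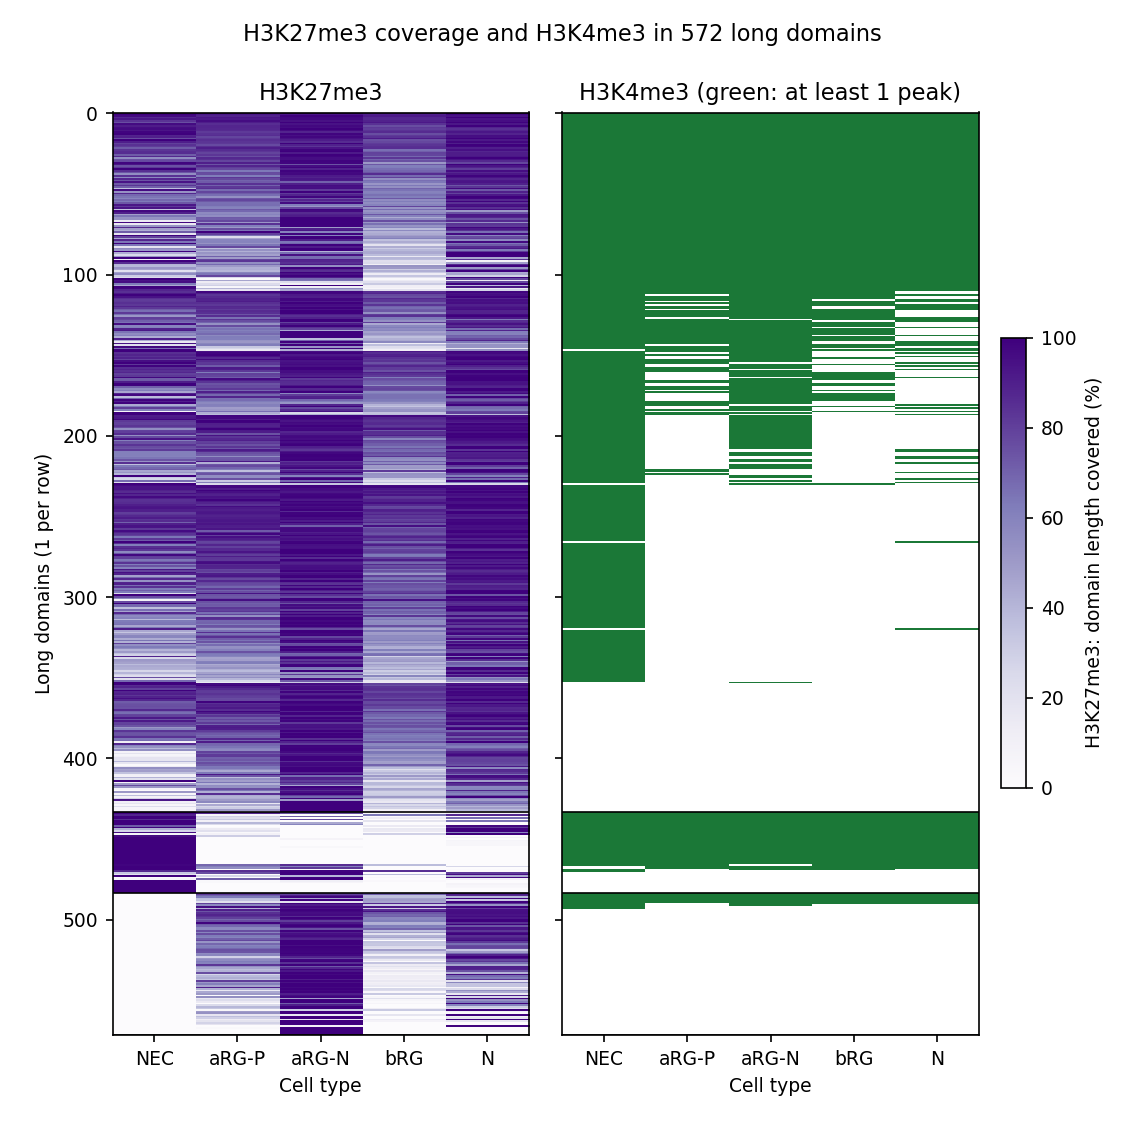
Each row is 1 of 572 long domains. The left panel shows the share of its length covered by H3K27me3 peaks of each cell type (colour scale in %), and the right panel is green where the H3K4me3 list of that cell type had at least 1 peak. Black lines separate 434 domains with H3K27me3 in all 5 lists (top), 50 with H3K27me3 in NEC and not in all of the others, and 88 without NEC H3K27me3 (bottom), which are nearly blank for H3K4me3.

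**Figure D2:**
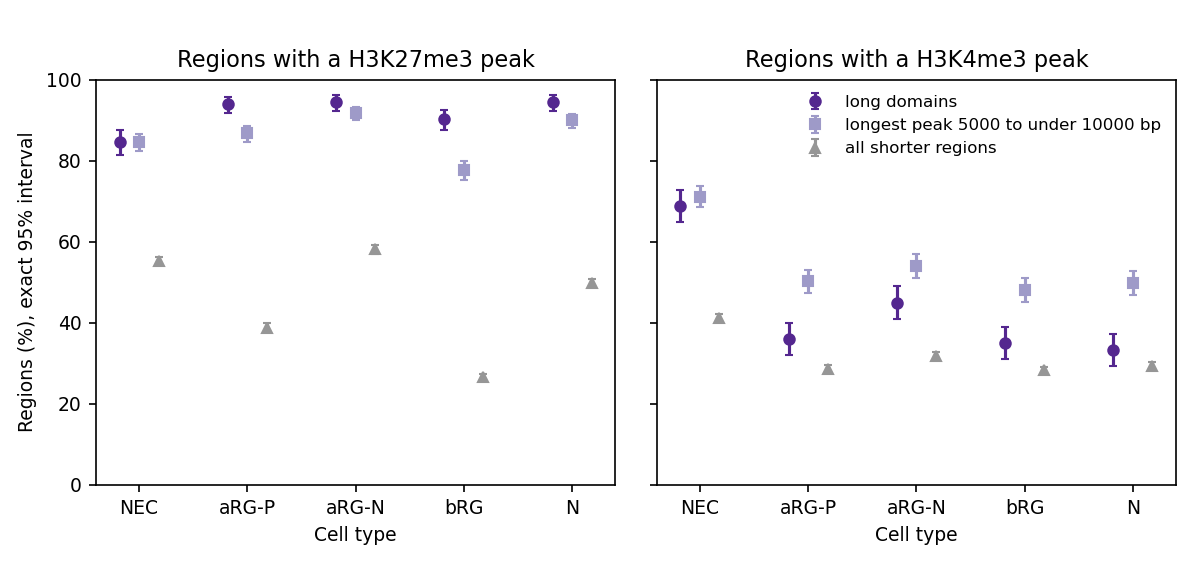
Points give the share of regions (%) with at least 1 peak of H3K27me3 (left) or H3K4me3 (right) in each cell type, for 572 long domains, 1171 regions with a longest peak of 5000 to under 10000 bp and all 9259 shorter regions, with exact 95% intervals of counting error. H3K4me3 was found in 68.9% of long domains in NEC and in 33.2 to 44.9% in the E14.5 cell types.

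Where both lists of a pair held a peak of at least 10000 bp, the outer ends of the marked stretch were compared. Ends of N and aRG-N differed by a median of 691 bp in 342 domains, and 63.3% of ends lay within 1000 bp. Ends of bRG and aRG-P lay within 1000 bp in 62.7% of cases, those of aRG-N and aRG-P in 51.3%, those of aRG-P and NEC in 49.5%, those of N and NEC in 45.3% and those of bRG and aRG-N in 38.7%. The median shifts ran from 620.5 bp (bRG and aRG-P) to 1428 bp (bRG and aRG-N). The rule used these peak lengths and both peaks had to reach 10000 bp, so the distances are a description only.

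The 10 longest domains, 51.9 to 113.8 kb, included 8 with H3K27me3 of at least 10000 bp in every cell type. The longest, chr12:57533250-57647048, measured 113.8 kb. H3K27me3 covered 29.9 kb of it in NEC, 43.3 kb in aRG-P, 113.8 kb in aRG-N, 34.7 kb in bRG and 98.2 kb in N, each as 1 peak. The right ends of the 5 peaks lay close together, and the left ends lay far apart. It was also the domain with the largest difference between N and NEC, 68.3 kb more in N. Its H3K4me3 was confined, among the 5 lists, to 4 NEC peaks of 1.31 kb in all.

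The domain chr1:78130828-78218903, 88.1 kb long, was filled in N (86.98 kb covered) and aRG-N (87.4 kb) and broken into 8 NEC peaks covering 61.9 kb. Its H3K4me3 was a single NEC peak of 2.47 kb with a fold enrichment of 15.3, a value the authors' peak caller gave. The domain chr9:91242194-91318691, 76.5 kb long, was covered by 1 H3K27me3 peak of 64.7 to 75.3 kb in each list. H3K4me3 inside it measured 13.3 kb in NEC, 0.899 kb in aRG-P, 2.29 kb in aRG-N and 0.793 kb in bRG, and N had none. A wide H3K4me3 stretch within H3K27me3 was thus seen in NEC and short peaks or none at E14.5.

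The same order of H3K4me3 lengths held in chr7:77459931-77524198, with 10.9 kb in NEC and 1.32 to 2.13 kb in the E14.5 lists. H3K27me3 covered 35.5 kb of this domain in NEC and 53.1 to 64.3 kb at E14.5. Here the wider NEC H3K4me3 peak, 8.63 kb long, lay mainly in a gap of NEC H3K27me3. That gap ran from 34.9 to 47.9 kb of the domain and was broken by 1 H3K27me3 peak of 0.417 kb. In chr4:115599463-115658617 and chr2:33454181-33506037, NEC was the only list with H3K4me3, at 1.12 and 2.22 kb. H3K27me3 covered 57.6 and 35.4 kb of these domains in NEC and 37.1 to 56.6 kb and 30.3 to 51.9 kb at E14.5.

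Of the 10 longest, chr5:148070177-148136015 (65.8 kb), chr11:96020718-96076128 (55.4 kb) and chr9:63327270-63381865 (54.6 kb) had no H3K4me3 peak in any list. The first was covered by H3K27me3 over 49.3 kb in NEC and bRG, 51.5 kb in aRG-P, 62.6 kb in aRG-N and 62.5 kb in N, and a break near its middle appeared in every list except aRG-N. The second carried 44.0 to 54.2 kb of H3K27me3 in the 5 lists. It lay just outside the Hox window of its chromosome, and whether it holds Hox genes was not checked. The third had no H3K27me3 in NEC. At E14.5 it was covered over 37.4 kb in aRG-P in 6 peaks, 51.7 kb in aRG-N in 2, 32.1 kb in bRG in 8 and 54.6 kb in N in 1.

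**Figure D3:**
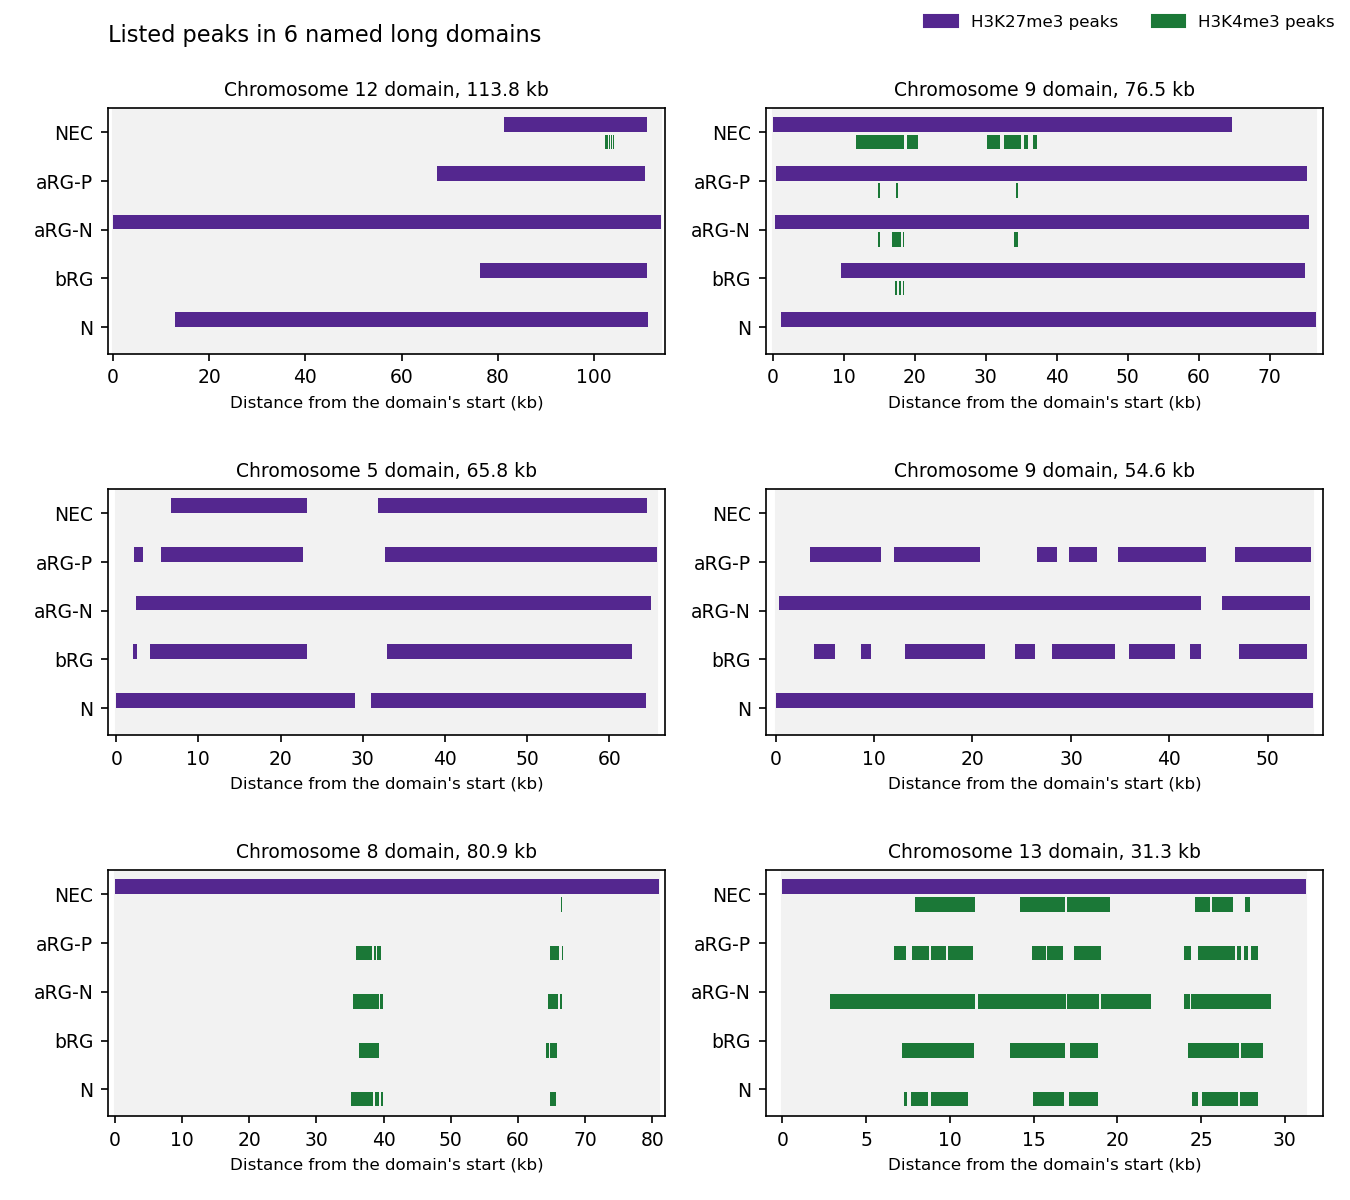
H3K27me3 peaks (purple, upper bars) and H3K4me3 peaks (green, lower bars) in each cell type along 6 named domains, with distance from the domain's start in kb. In the chromosome 8 and 13 domains H3K27me3 covers the whole domain in NEC and none of it at E14.5, while H3K4me3 is present in all 5 lists.

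H3K4me3, which the rule did not use, was found in more long domains in NEC than in any E14.5 cell type. A peak was present in 394 domains for NEC (68.9%, interval 64.9 to 72.7%), 205 for aRG-P (35.8%), 257 for aRG-N (44.9%), 200 for bRG (35.0%) and 190 for N (33.2%, interval 29.4 to 37.2%). Over all autosomal regions the shares were 42.7% for NEC, 28.9% for aRG-P, 32.6% for aRG-N, 28.6% for bRG and 29.6% for N. In regions with a longest peak of 5000 to under 10000 bp the share was 71.1% in NEC, close to that of long domains, and 48.1 to 54.0% in the E14.5 lists, above them. The NEC share was also the highest under each of the 11 other settings tried for it. The NEC H3K4me3 list was itself the longest, with 17867 peaks over 20.3 Mb. The E14.5 H3K4me3 lists held 14801 to 15982 peaks over 11.8 to 15.6 Mb. The H3K4me3 lists also differed in making. Skipped peak numbers made up 17.8% in NEC and 8.63 to 10.9% in the E14.5 lists, and the headers of both apical lists add a window of 2000 bp. The part of list length and list making in the higher NEC share was not tested.

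Per length, long domains held less H3K4me3 than shorter regions. There were 6.37 H3K4me3 peaks per 100 kb of long domain for NEC, 3.44 for aRG-P, 3.55 for aRG-N, 3.09 for bRG and 2.71 for N. The shorter regions held 18.9, 13.6, 13.97, 12.9 and 13.6 peaks per 100 kb in the same cell types. Regions with a longest peak of 5000 to under 10000 bp lay between, at 13.7 in NEC and 8.78 to 9.74 at E14.5. The part of region length in this order was not tested. H3K4me3 covered 6.72% of long-domain length in NEC and 2.35 to 3.76% at E14.5, against 15.6% and 7.85 to 9.93% in shorter regions. The peaks that did lie in long domains were also narrower and of lower fold enrichment than others of their list. In NEC, 753 peaks in long domains had a median width of 659 bp and a median fold enrichment of 7.88, against 951 bp and 13.8 in shorter regions and 1055 bp and 23.6 outside H3K27me3 regions. In N, 320 peaks in long domains had medians of 609.5 bp and 6.07, against 728 bp and 7.16 in shorter regions and 734 bp and 8.81 outside. The aRG-P, aRG-N and bRG lists gave the same order of the 3 places for both medians.

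Across the 5 lists the domains fell mainly into 3 H3K4me3 patterns. No list had H3K4me3 in 171 domains (29.9%), against 56.5% of all autosomal regions. All 5 lists had it in 149 domains (26.0%), against 24.2% of all autosomal regions, which is near that background. In regions with a longest peak of 5000 to under 10000 bp these shares were 27.9% in no list and 41.2% in all 5. Against that class, the long-domain share in no list was close and the share in all 5 lists was lower. NEC alone had it in 123 domains (21.5%, interval 18.2 to 25.1%), against 8.2% of all autosomal regions. A further 32 domains had H3K4me3 in NEC and aRG-N only. Absence here means no listed peak. For domains without H3K4me3, the listed peaks on both sides skipped a number in 111 of 178 for NEC and 97 of 367 for aRG-P. The same held in 97 of 315 for aRG-N, 91 of 372 for bRG and 106 of 382 for N. In those domains an unlisted H3K4me3 call was possible.

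The 123 domains with H3K4me3 in NEC only were longer and carried H3K27me3 in more lists than the 149 with H3K4me3 in every list. Their median length was 19919 bp, against 15202 bp, and 120 of them (97.6%) had H3K27me3 in all 5 lists, against 111 (74.5%). Their strongest NEC H3K4me3 peak had a median fold enrichment of 7.39, against 16.7. The median share of length covered by H3K27me3 in these 123 domains was 94.2% in N and 70.3% in NEC. In the 149 domains it was 86.98% in N and 84.1% in NEC. Among shorter regions, 335 of 683 with H3K4me3 in NEC only and 742 of 2233 with it in every list had H3K27me3 in all 5 lists. The order of H3K27me3 was thus the same there. The order of length was not, with medians of 3034 bp for NEC only and 3297 bp for every list.

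Whether a domain carried H3K4me3 was next compared between domains without and with H3K27me3 of the same cell type. In NEC the marks occurred together. Of 88 domains without NEC H3K27me3, 10 had NEC H3K4me3 (11.4%, interval 5.59 to 19.9%), against 384 of 484 with it (79.3%, interval 75.5 to 82.9%). The same NEC order was found in other regions, where the shares without and with NEC H3K27me3 were 12.4 and 64.4% in shorter regions, and 17.3 and 80.8% in regions with a longest peak of 5000 to under 10000 bp. In 78 of the 88 long domains no list had H3K4me3. In the E14.5 lists the order in long domains was the other way round. H3K4me3 was present in 18 of 34 domains without and 187 of 538 with H3K27me3 in aRG-P (52.9 and 34.8%), and in 25 of 31 without and 232 of 541 with it in aRG-N (80.6 and 42.9%). In bRG it was present in 28 of 56 domains without H3K27me3 (50%) and 172 of 516 with it (33.3%), and in N in 19 of 32 without (59.4%) and 171 of 540 with it (31.7%). The intervals without and with H3K27me3 overlapped in aRG-P (35.1 to 70.2% and 30.7 to 39.0%) and in bRG (36.3 to 63.7% and 29.3 to 37.6%). In aRG-N and N they did not overlap. In shorter regions the share without H3K27me3 was below that with it in each E14.5 list, for example 23.7 and 36.1% in aRG-P and 21.4 and 37.3% in N. In regions with a longest peak of 5000 to under 10000 bp the intervals without and with H3K27me3 overlapped in each E14.5 list, for example at 52.9 and 49.8% in aRG-P.

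This E14.5 order rested, in aRG-P, bRG and N, on domains that only the NEC list admitted. With domains found from the other 4 lists, H3K4me3 was present in 3 of 12 domains without H3K27me3 in aRG-P (25%), 8 of 8 in aRG-N, 5 of 25 in bRG (20%) and 3 of 11 in N (27.3%), against 162 of 505 with it in aRG-P (32.1%), 203 of 509 in aRG-N (39.9%), 155 of 492 in bRG (31.5%) and 148 of 506 in N (29.2%). The shares without H3K27me3 in aRG-P, bRG and N thus moved by more than 1.5 times, to below those with it, and rest on 11 to 25 domains each. Absence was also checked against skipped peak numbers. The listed peaks on both sides of a domain without H3K27me3 had consecutive numbers, leaving no unlisted call between them, for NEC in 43 of 88 domains, for aRG-P in 15 of 34, for aRG-N in 14 of 31, for bRG in 29 of 56 and for N in 17 of 32. Among those alone, NEC H3K4me3 was present in 1 of 43 domains (2.33%).

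**Figure D4:**
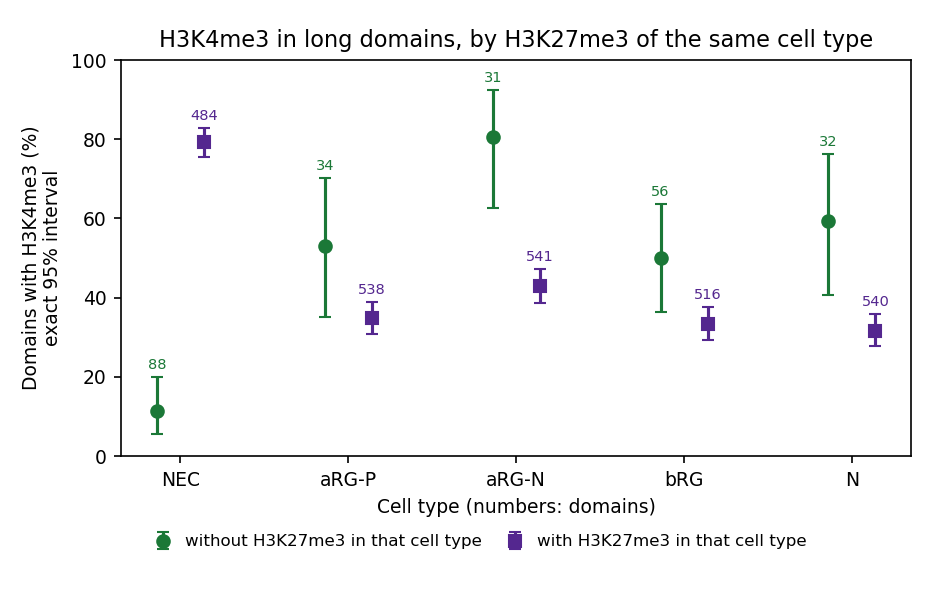
Share of long domains (%) with H3K4me3 in each cell type, for domains without (circles) and with (squares) H3K27me3 of that cell type, with exact 95% intervals and the number of domains above each point. NEC had 11.4% without and 79.3% with H3K27me3, while the E14.5 lists had 50 to 80.6% without and 31.7 to 42.9% with it.

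Among domains lacking H3K27me3 in some lists, the most frequent pattern was its presence in all 4 E14.5 lists and not in NEC. Presence in NEC alone came next, in far fewer domains. In 69 domains all 4 E14.5 lists and not NEC carried H3K27me3 (12.1%, against 2.87% of all autosomal regions), and 59 of the 69 had no H3K4me3 in any list (85.5%, interval 74.96 to 92.8%). Regions of the same H3K27me3 pattern had none in 71.6% of cases where the longest peak was 5000 to under 10000 bp (interval 60.5 to 81.1%), which overlaps, and in 56.3% of all shorter regions. The median covered share in these domains was 57.5% for aRG-P, 97.0% for aRG-N, 31.5% for bRG and 82.8% for N. In domains with H3K27me3 in all 5 lists it was 76.3% for aRG-P, 95.01% for aRG-N, 66.1% for bRG and 91.3% for N, so the aRG-N shares were close and the other 3 were higher there. The longest of the 69, besides the chromosome 9 domain above, were chr11:35341745-35390253 (48.5 kb, H3K27me3 over 30.0 kb in bRG to 48.5 kb in N) and chr9:69659229-69691929 (32.7 kb, over 27.9 kb in bRG to 32.5 kb in aRG-N). Neither had H3K4me3 in any list. In 13 domains NEC was the only list with H3K27me3 (2.27%, against 18.6% of all autosomal regions), and 10 of the 13 had H3K4me3 in all 5 lists (76.9%, interval 46.2 to 94.96%). Among regions with H3K27me3 in NEC only, this share was 54.8% where the longest peak was 5000 to under 10000 bp (interval 38.7 to 70.2%), which overlaps, and 29.9% in all shorter regions. Another 8 domains (1.40%) had H3K27me3 in NEC and N alone, against 2.40% of shorter regions, and 4 (0.70%) in aRG-N alone, against 15.9% of shorter regions. The longest of these 4, chr4:44517356-44547067 (29.7 kb), had no H3K4me3 in any list.

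Several named domains had H3K27me3 in NEC only and H3K4me3 in all 5 lists. In chr8:87257975-87338904 (80.9 kb, 1 NEC peak of H3K27me3) H3K4me3 measured 0.183 kb in NEC, 4.87 kb in aRG-P, 6.18 kb in aRG-N, 4.42 kb in bRG and 5.11 kb in N. In chr13:83852072-83883355 (31.3 kb, H3K27me3 in NEC only) H3K4me3 measured 11.3 kb in NEC, 11.1 kb in aRG-P, 23.9 kb in aRG-N, 13.7 kb in bRG and 10.7 kb in N, the most of any long domain in each E14.5 list. In this domain NEC H3K4me3 was above that of aRG-P and N and below that of aRG-N and bRG, and NEC H3K27me3 covered the whole length. In chr3:88003000-88025191 (22.2 kb) and chr12:50473557-50503223 (29.7 kb), also with H3K27me3 in NEC only, H3K4me3 measured 4.2 and 12.0 kb in NEC, 10.8 and 8.48 kb in aRG-P, 13.5 and 13.4 kb in aRG-N, 6.45 and 12.5 kb in bRG and 6.00 and 9.03 kb in N.

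Further long domains had little H3K27me3 in some E14.5 lists. In chr1:42739894-42772996 (33.1 kb), NEC H3K27me3 spanned the whole domain, N had 2.51 kb of it and the radial glia had none, while H3K4me3 measured 5.33 kb in N to 10.6 kb in aRG-N, with 6.90 kb in NEC. In chr18:37884502-37929188 (44.7 kb), H3K27me3 covered 44.7 kb in NEC, 2.07 kb in aRG-N and 0.612 kb in N, and H3K4me3 did not exceed 0.605 kb in any list. In chr11:98172044-98215868 (43.8 kb) H3K27me3 covered 40.8 kb in NEC, 20.2 kb in aRG-P, 28.3 kb in aRG-N, 6.11 kb in bRG and 6.23 kb in N, and H3K4me3 measured 4.33 to 4.94 kb at E14.5 against 0.901 kb in NEC.

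The domains with most NEC H3K4me3 differed among themselves. In chr17:86000582-86032087 (31.5 kb), NEC had 14.4 kb of H3K4me3 with a fold enrichment of up to 43.3 and 11.4 kb of H3K27me3. The E14.5 lists had no H3K4me3 there and 25.6 to 30.5 kb of H3K27me3. In chr2:105498580-105532564 (34.0 kb), the 3 types of radial glia and NEC had 6.40 to 13.9 kb of H3K4me3 and N had 0.551 kb. H3K27me3 covered all 34.0 kb in N, against 21.3 kb in NEC and 3.43 to 10.9 kb in the radial glia. In both domains the cell types with little or no H3K4me3 were those with most H3K27me3.

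Within domains carrying both marks in a cell type, H3K4me3 peaks seldom lay fully outside H3K27me3 in NEC and did so more often at E14.5. Peaks wholly outside the H3K27me3 peaks of the same cell type numbered 20 of 737 in NEC (2.71%, interval 1.67 to 4.16%), 80 of 336 in aRG-P (23.8%, interval 19.4 to 28.7%), 44 of 354 in aRG-N (12.4%), 69 of 271 in bRG (25.5%) and 32 of 259 in N (12.4%). By length, 13.3% of NEC H3K4me3 lay outside H3K27me3, less than the 26.3% of domain length that did. The share of H3K4me3 length outside was 40.3% for aRG-P, 27.2% for aRG-N, 46.9% for bRG and 27.5% for N, where 32.9, 14.01, 40.5 and 21.0% of the domain length was outside. These shares pool all domains. Taken singly, a minority of domains with a gap had a larger share of H3K4me3 than of domain length outside. They numbered 45 of 185 in aRG-P, 34 of 195 in aRG-N, 45 of 172 in bRG, 24 of 152 in N and 23 of 346 in NEC. With domains found without the NEC list, the share of peaks wholly outside was 3.19% for NEC, 16.6% for aRG-P, 8.58% for aRG-N, 21.8% for bRG and 5.09% for N. The aRG-P, aRG-N and N values fell outside their main intervals, and only the N value changed by more than 1.5 times. With domains found without the N list the NEC share was 1.75% (12 of 687). That was a change of more than 1.5 times that stayed within its main interval. NEC had the lowest share under each setting tried.

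Domains with H3K4me3 were not clearly more broken than those without. More than 1 H3K27me3 peak was found in 17.7% of domains with and 22% without H3K4me3 for NEC, 34.8 and 37.0% for aRG-P, 18.1 and 14.9% for aRG-N, 43.0 and 36.0% for bRG, and 20.5 and 22.8% for N. The intervals of the shares with and without H3K4me3 overlapped in each cell type.

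The covered length of each long domain was then compared between pairs of cell types, counting differences of at least 2-fold. In aRG-P, 128 of 565 domains with H3K27me3 in either list had at least 2-fold more length covered than in NEC and 63 at least 2-fold less, where 22.1 and 49.9% of all autosomal regions did so. In N, 157 of 565 domains had more than in NEC and 48 less, where the background was 30.4 and 37.2%. In aRG-N, 76 of 550 domains had more than in aRG-P and 10 less (background 50.7 and 11.9%). In bRG, 13 of 542 had more than in aRG-P and 81 less (background 11.3 and 43.8%), and 9 of 548 had more than in aRG-N and 163 less (background 4.62 and 67.6%). In N, 29 of 558 had more than in aRG-N and 54 less (background 22.8 and 35.5%). The rule used these lengths and the pairs share cell types, so nothing is read from the counts against the background or between pairs.

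H3K4me3 differed between NEC and later cells almost only in 1 direction, and NEC had the longest H3K4me3 list. It was present in aRG-P and absent in NEC in 3 domains, and absent in aRG-P and present in NEC in 192, where the background was 0.264 and 14%. It was present in N and absent in NEC in 5 domains, and absent in N and present in NEC in 209, 36.5% of long domains (background 0.529 and 13.7%). Among E14.5 pairs, aRG-N and not aRG-P had H3K4me3 in 61 domains and aRG-P alone in 9 (background 4.85 and 1.19%). In bRG and not aRG-P it was found in 26 domains, against 31 in the reverse direction (background 2.43 and 2.8%), and in bRG and not aRG-N in 4, against 61 (background 0.692 and 4.72%). In N and not aRG-N it was found in 18 domains, against 85 (background 2.18 and 5.23%).

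The 209 domains with H3K4me3 in NEC and none in N were then split by the fold enrichment of the NEC mark. Of 394 domains with NEC H3K4me3, 53.0% had none in N (interval 48.0 to 58.1%), against 29.9% of shorter regions and 30.9% of regions with a longest peak of 5000 to under 10000 bp. Where the strongest NEC peak had a fold enrichment under 5 the share was 85.2% in long domains (23 of 27) and 80.4% in shorter regions, and from 5 to 10 it was 72.4% (97 of 134) and 66.2%. From 10 to 20 it was 46.2% in long domains (73 of 158, interval 38.2 to 54.3%) and 23.1% in shorter regions (interval 21.1 to 25.1%). At 20 or more it was 21.3% (16 of 75, interval 12.7 to 32.3%) and 11.9% (interval 10.1 to 13.9%). In regions with a longest peak of 5000 to under 10000 bp it was 22.9% from 10 to 20 (interval 19.1 to 27.1%) and 7.30% at 20 or more (interval 3.95 to 12.2%). The intervals of long domains overlapped those of both other classes under 10 and lay above both from 10 to 20. At 20 or more they overlapped slightly with those of all shorter regions and not with those of the 5000 to under 10000 bp class. Why N lacked these peaks was not tested.

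**Figure D5:**
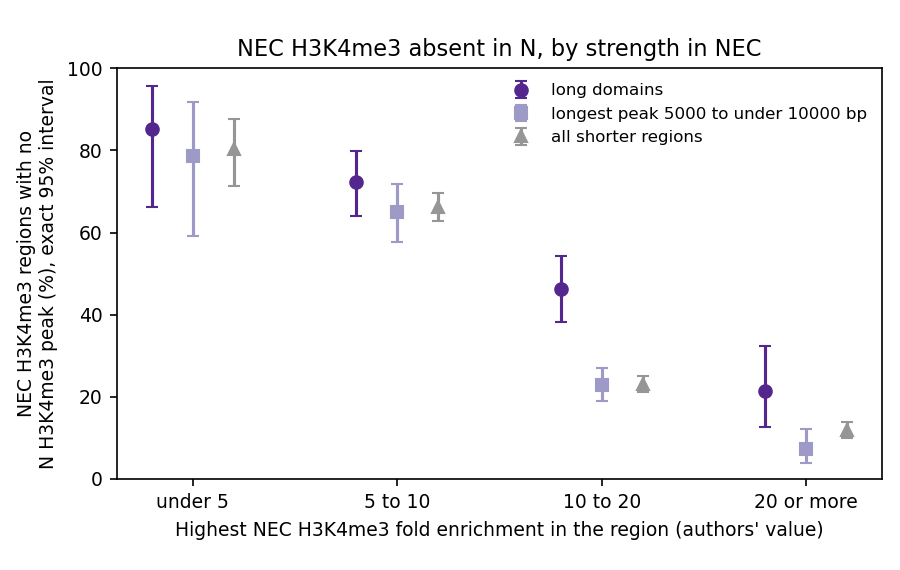
Share (%) of regions with NEC H3K4me3 that had no H3K4me3 peak in N, by the highest fold enrichment of the NEC peaks in the region, for long domains, regions with a longest peak of 5000 to under 10000 bp and all shorter regions, with exact 95% intervals. At a fold enrichment of 10 to 20 the share was 46.2% in long domains and 23.1% in shorter regions.

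H3K27me3 coverage is given for the same domains. In the 209 domains with H3K4me3 in NEC and none in N, H3K27me3 covered a median of 94.0% of the length in N and 75.4% in NEC, and coverage was higher in N in 175. In 185 domains with H3K4me3 in both, the medians were 87.5% in N and 82.1% in NEC, with coverage higher in N in 108. In 173 domains with H3K4me3 in neither, the medians were 81.1% in N and 6.21% in NEC. Covered length was used by the rule, the last set holds most of the domains without NEC H3K27me3, and the N list was made from extended reads, so these medians are a description only.

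Of the joined regions, chromosome 2 held 64 long domains of 928 (6.90%) and chromosome 11 held 63 of 969 (6.50%), near the 5.82% of all autosomal regions. Per 100 Mb of the span holding listed peaks the numbers were 53.0 on chromosome 11, 41.4 on chromosome 19, 35.8 on chromosome 2 and 11.6 on chromosome 16. As a share of the joined regions of a chromosome they ran from 4.05% on chromosome 15 to 8.89% on chromosome 13. Of the long domains, 177 (30.9%) fell in 73 groups whose members lay within 100 kb of the next, and 395 were alone. The same share was not computed for other regions. The largest group held 6 domains on chromosome 7 from 138598311 to 138974454, with 171 kb of its 376 kb in domains.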

How the data were processed

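Chromatin immunoprecipitation used a low-cell kit, per the labels' protocols. Bowtie 1.0.0, MACS2, bedtools and build mm9 are named in the submitters' processing notes. The authors' 10 deposited peak lists were used. Per the peak names each was called on combined samples, mostly after duplicate removal. Peaks at transcripts were listed, per the file headers, and both apical H3K4me3 headers add a window of 2000 bp. Skipped peak numbers made up 26.5 to 36.6% of H3K27me3 and 8.63 to 17.8% of H3K4me3 numbers, and peaks with those numbers were not analysed here. Each deposited H3K4me3 peak carries a fold enrichment over background and a −log10 q, used within a list only. The deposited H3K27me3 value is called a score, since its meaning could not be settled, and it only ranked peaks for 1 alternative. The Input samples and the signal tracks that the labels name were not analysed here.

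Presence in a domain means 1 bp of a listed peak, and covered length is clipped to the domain. Named domains were the 10 longest, and by fixed rule the longest lacking each list, with 1 list, with 10000 bp peaks in all lists or without H3K4me3, those with most H3K4me3 per list, those differing most between N and NEC, and those at the threshold. The members, lists and rules were chosen with earlier results of these data known. The reference table held another build than mm9, so gene names, gene lists and sequences were not used here. The length rule was checked on planted peaks, where all 127 planted peaks of 10000 bp or more among 200 were recovered and 0 other regions called. Planted peaks were placed where they met no other peak, so their recovery did not test joining. Python 3.11.15, numpy 2.4.6, pandas 2.3.3, scipy 1.17.1 and matplotlib 3.10.9 were used. Alternatives were admitting peaks of 8000 or 20000 bp, joining across 3000 bp, lists cut to 3476 peaks and leaving out each list when finding domains. Others were presence at 50% coverage, a −log10 q of at least 5 and 50% of the H3K4me3 peak inside. Requiring consecutive peak numbers was added after seeing the data.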

Additional observations from a re-analysis of the deposited data

How the results depend on the processing

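Of 337 values recomputed under 13 alternatives, 275 stayed within their 95% interval or within 1.5 times their count and 62 moved. No difference was called by a test, so none could reverse, but the order of H3K4me3 shares without and with H3K27me3 turned round in aRG-P, bRG and N for domains found without the NEC list. The causes of the moves were not tested. No paired analysis was possible because the lists used here were called on combined samples and hold no replicate columns, so no replicate could be left out either. With an admitting peak of 20000 bp, 206 domains were found, and H3K27me3 was present in 92.7% of them in NEC, 92.2% in aRG-N and 83.5% in all 5 lists. H3K4me3 was then present in 74.8% in NEC and 26.7% in N, in no list in 50 domains, in all 5 in 47 and in NEC only in 57, and 12 domains had H3K27me3 in the 4 E14.5 lists and not in NEC. Among domains without H3K27me3 its share was 20% in NEC and 66.7% in bRG, with H3K27me3 it was 25.3% in N, and peaks wholly outside H3K27me3 made up 30.3% in aRG-P and 18.75% in N. With 8000 bp, 241 domains had H3K4me3 in all 5 lists, and its share was 37.7% in N, or 36.3% where N had H3K27me3. Joining across 3000 bp gave H3K27me3 in 78.6% in NEC, 84.8% in bRG and 68.2% in all lists, H3K4me3 in 63.0% in NEC and in no list in 262 domains, and 34.8% in bRG without H3K27me3. Lists cut to 3476 peaks gave H3K27me3 in 79.2% in NEC, 89.3% in N and 71.0% in all lists, and H3K4me3 in 82.9% of domains with NEC H3K27me3. Domains found without the NEC list had H3K27me3 in 97.7% for aRG-P, 98.5% for aRG-N, 95.2% for bRG, 97.9% for N and 79.7% in all lists, and H3K4me3 in 30.9% in bRG and 29.2% in N. Where these lacked H3K27me3 of the cell type, H3K4me3 was present in 25% for aRG-P, 100% for aRG-N, 20% for bRG and 27.3% for N, and peaks wholly outside H3K27me3 made up 16.6% for aRG-P, 8.58% for aRG-N and 5.09% for N. Domains found without the aRG-N list had H3K27me3 in 89.9% in NEC and 79.9% in all lists, with 43 in the E14.5 lists and not NEC, and H3K4me3 in 73.5% in NEC and 66.7% of those without H3K27me3 in bRG. Requiring 50% coverage gave H3K27me3 in 66.4% for NEC, 76.6% for aRG-P, 89.7% for aRG-N, 59.4% for bRG, 84.8% for N and 48.6% in all lists. A −log10 q of at least 5 gave H3K4me3 in 64.2% for NEC, 30.4% for aRG-P, 38.1% for aRG-N and 28.7% for bRG, and with H3K27me3 in 73.8% for NEC, 29.0% for aRG-P, 35.7% for aRG-N and 26.6% for bRG. Counting absence only between consecutive peak numbers gave H3K4me3 in 2.33% of domains without NEC H3K27me3, an alternative chosen after seeing the data. Finding domains without the aRG-P, bRG or N list, or requiring 50% of an H3K4me3 peak inside, moved no value. The left-out list was still used for presence. The domains so found numbered 571 without aRG-P, 572 without bRG and 532 without N, so leaving out aRG-P or bRG hardly changed the set. Read depth is unknown, so a missing peak may be a site below a list's threshold.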
